A study of Mus musculus with 9 samples.

Results

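Wire-injured femoral arteries from mice given an oral inhibitor of focal adhesion kinase (FAK) were compared with wire-injured arteries from mice without it, gene by gene across the transcriptome. The comparison uses 6 of the 9 libraries of the series, 3 per group, chosen by their column labels and not by any measured value, and all 16933 genes that the authors' table for this pair holds. All mice were of strain C57BL/6, and the sampled tissue was the media, the smooth muscle layer, of the femoral artery. The injured group was collected 14 days after wire injury. The inhibitor-treated group was collected 14 days after the same injury, and these mice had received VS-4718, a small molecule inhibitor of FAK, by oral gavage at 50 mg/kg given 2 times a day over 2 weeks. Citrate is the vehicle the labels name, without saying which libraries received it. The remaining 3 libraries came from sham-operated arteries, which enter here only as a level set beside the others. The labels state that the adventitia and surrounding fat had been stripped and that a TRIzol flush of the lumen preceded collection, to take off endothelial and immune cells, and the drug reached the whole animal rather than a chosen cell type. The labels number the libraries without giving the animals per library, so a p-value here reflects how these samples vary among themselves, and that variation may be technical. Animal age is not given in the sources used here, nor is the preparation kit.

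FAK, encoded by Ptk2, is a cytoplasmic tyrosine kinase that is recruited to integrins where a cell grips its matrix. It pairs with Src family kinases, phosphorylates adaptors such as paxillin and p130Cas, and passes on signals for spreading, migration and division. Arterial smooth muscle cells are not fixed in fate: in the healthy wall they contract and hold a large store of actin, myosin and adhesion proteins, and after injury they can lose that store, divide, and secrete matrix. Macrophages and other leukocytes enter the wall at the same time and supply cytokines and proteases.

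Each value below is a normalised read count, the reads of a gene divided by one factor per library, and the 6 libraries held between 14676405 and 21247261 reads. A log2 fold change is the inhibitor-treated minus the injured group on log2(normalised count + 1), with its standard error (SE). A gene is called when limma gives a Benjamini-Hochberg adjusted p under 0.05 over the 16901 genes tested, and every adjusted p below is from that fit unless another is named. Sham levels (mean ± SD, n = 3) were rescaled onto the scale of this table and were not tested. Counts are per gene and not per length, so levels are compared between groups and not between genes. Because these are bulk samples, a change in the number of cells of a type and a change in RNA per cell cannot be told apart in any result below. The counting's use of strand is not given in the sources used here, so reads of overlapping or antisense genes cannot be told apart, and values of near-identical copies (globin, immunoglobulin, histone, MHC, Oas, Hspa1a and Hspa1b genes) are uncertain.

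The 2 groups differed in transcripts that belong to neither muscle nor matrix, and these values stand beside every result below. Rn7sk, the 7SK small nuclear RNA, which carries no poly(A) tail, was at 13.7, 15.7 and 16.1 in the injured libraries and at 28109, 16936 and 19042 in the inhibitor-treated ones, against 19.3 ± 13 in sham. All 11 tested members of the list of small RNA genes without poly(A) were called higher, among them Rmrp and Rpph1, the RNA components of RNase MRP and RNase P (log2 fold changes 8.50 ± 0.29 and 8.18 ± 0.21). Of 36 erythroid markers 30 were called higher and 0 lower, and their summed level ran from 11612 to 16772 in the injured and from 143224 to 242877 in the inhibitor-treated libraries. Tspo2 and Trim58 were at 0 in all 3 injured libraries. Alas2, the enzyme that starts heme synthesis in red cells, was at 164, 66.8 and 98.6 and at 32281, 75992 and 45100.3. Of 18 platelet markers 17 were called higher, with a summed level of 4636 to 5614 in the injured and of 23032 to 50243 in the inhibitor-treated libraries. Red cell, platelet and small RNA transcripts thus separated the groups completely, and the treatment cannot be told apart from whatever in collection or library preparation went with it.

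In liver or skeletal muscle transcripts a library in each group also stood apart from its own replicates. The hepatocyte list, as a mean log2 level, was at 2.69, 3.62 and 9.97 in inhibitor-treated replicates 1, 2 and 3 and at 3.1, 3.24 and 3.28 in the injured ones, and Alb, serum albumin, was at 24.7, 73.7 and 16701 in the inhibitor-treated libraries. The skeletal muscle list was at 10.2, 12.7 and 9.1 in injured replicates 1, 2 and 3 and at 6.7, 9.44 and 7.84 in the inhibitor-treated ones, with Myh4, a fast skeletal myosin, at 14744, 168472 and 10631 and at 499, 10228 and 2609.7. Inhibitor-treated replicate 3 was therefore high in liver transcripts and injured replicate 2 in skeletal muscle transcripts, and neither Alb (adjusted p = 0.246) nor Myh4 (adjusted p = 0.0673) was called. Over the most variable genes the leading principal component held 69.9% of the variance and separated the groups, and the next held 18.8% and set inhibitor-treated replicate 3 apart from its 2 replicates. The count of each gene list below, rises and falls, was also taken without both of these libraries and is printed where it moved by more than 1.5 times. Leaving out 1 library moved the count in the direction of most calls by more than 1.5 times in 11 of the 55 lists, each given with its library. It moved the other count, of 5 members or fewer, in 26.

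**Figure D1:**
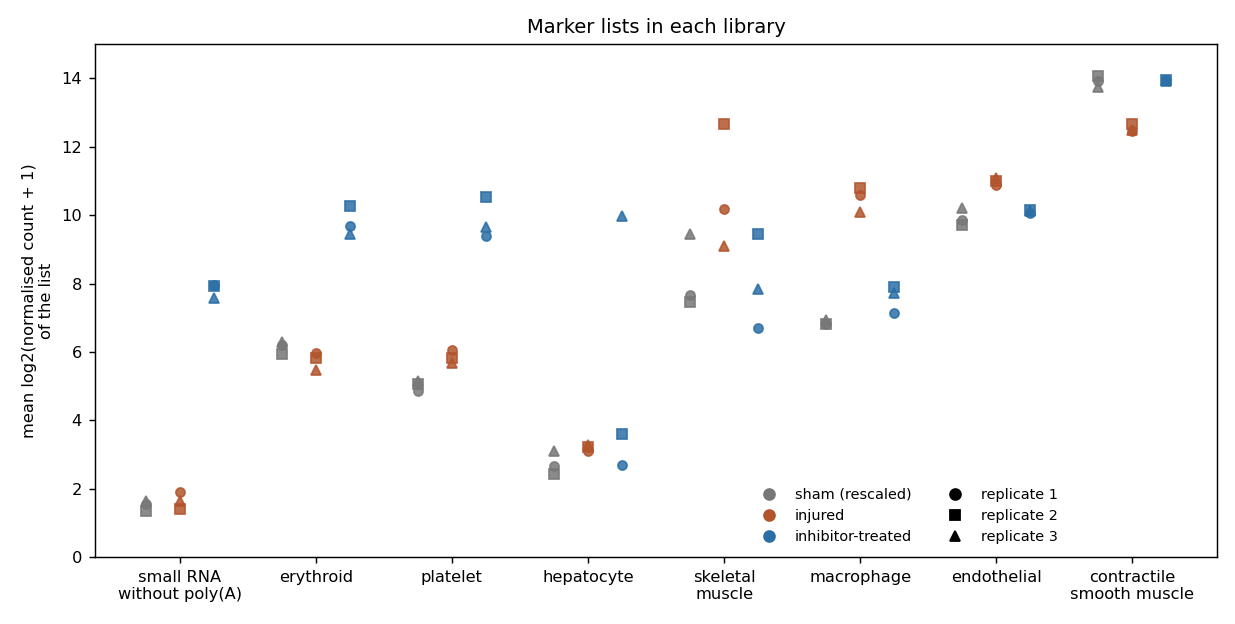
Mean log2(normalised count + 1) of 8 marker lists in each of the 9 libraries, coloured by group, with the marker shape giving the replicate number; sham levels are rescaled. Small RNA, erythroid and platelet lists are high in the 3 inhibitor-treated libraries, the hepatocyte list in inhibitor-treated replicate 3 and the skeletal muscle list in injured replicate 2, while the contractile list is high in all 3 inhibitor-treated libraries.

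Across the transcriptome, 6099 of the 16901 genes tested were called (36.1%), of which 2976 were higher (17.6%) and 3123 lower (18.5%) with the inhibitor. Each list count below is to be read beside these shares of all genes. For 8720 genes (51.6%) every library of one group lay above every library of the other, 4409 of them higher (26.1%) and 4311 lower (25.5%). A change of at least 1 on the log2 scale was found in 1314 called genes that rose and 1936 that fell, and one of at least 4 in 139 and 62. The calls numbered 3671 when only genes called in each of the 6 fits that left out 1 library were kept. Without injured replicate 2 and inhibitor-treated replicate 3 together, which leaves 2 libraries per group, 3069 genes were called (18.2%), 1461 higher and 1608 lower. List counts without both libraries are to be read beside these smaller numbers. On the recovered reads edgeR called 35.3% of genes and DESeq2 40.1%. The share of calls that were higher, 48.8%, depends on the scaling: scaled on cytosolic ribosomal protein genes alone, 4800 genes were called (28.4%), 69.3% of them higher, and the median of all genes moved from 0.006 to 0.351. Directions below are relative to the authors' scaling, and the lists whose median changed sign under the other are named with it, as are the 15 lists whose count in the direction of most calls moved by more than 1.5 times. Over the 11895 genes with a mean of at least 100 the median SD of log2 values was 0.0988 among inhibitor-treated and 0.203 among injured libraries. Across genes, Pearson's correlation of log2 values was 0.983 between inhibitor-treated replicates 1 and 2 but 0.953 and 0.954 between these and replicate 3, below the 0.962 to 0.973 of the injured pairs. Injured replicates 1 and 2 were at 0.973, and injured replicate 3 at 0.962 and 0.964 with them. Injured replicate 3 is not among the libraries left out together, and without it alone 7938 genes were called.

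**Figure D2:**
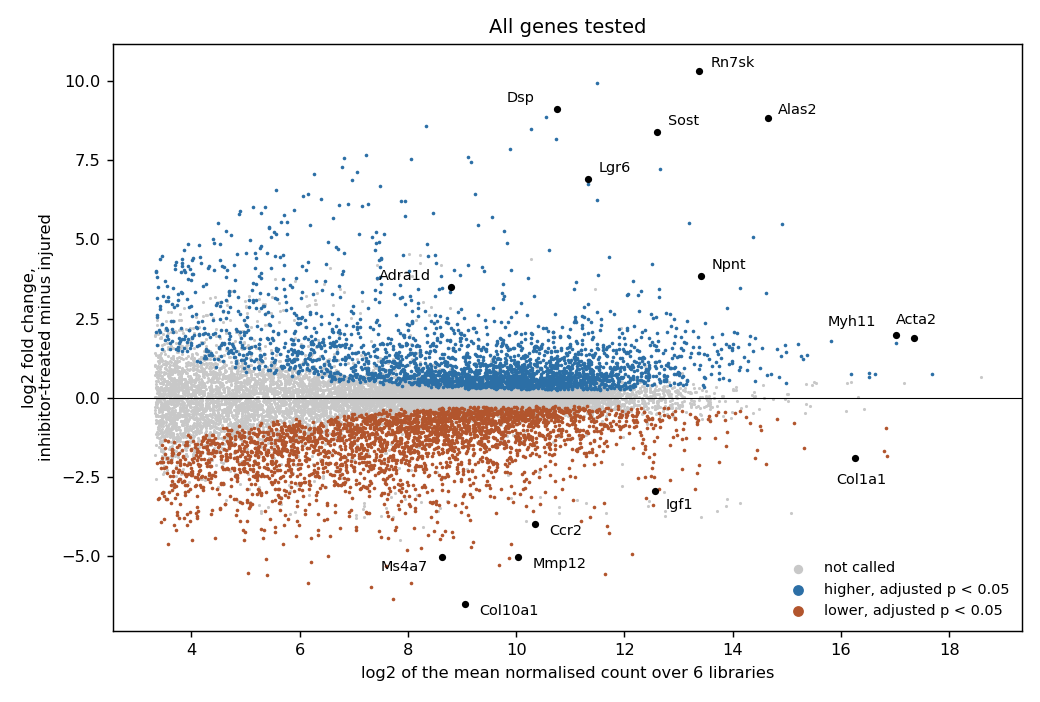
Log2 fold change (inhibitor-treated minus injured) against the log2 of the mean normalised count over the 6 libraries for every gene tested, with called genes in colour and 15 genes named. Calls lie on both sides of 0, and Rn7sk, Dsp, Alas2 and Sost are the highest of the named genes and Col10a1 the lowest.

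The gene of the drug's target was itself little different. Ptk2 (ENSMUSG00000022607, GRCm38 chromosome 15, 73205102 to 73423280) was at 1278, 1249 and 1471 in the injured libraries and at 1114, 1125 and 1087 in the inhibitor-treated ones, against 1088 ± 30.4 in sham. The groups did not overlap, but the log2 fold change of -0.26 ± 0.10 did not pass the test (adjusted p = 0.0702), and transcript level is no measure of the kinase activity that the compound blocks. Ptk2b, encoding the FAK relative PYK2, was at 659.7, 841 and 659 and at 359, 429.9 and 568 and fell by 0.68 ± 0.19 (adjusted p = 0.0268), a call lost without injured replicate 2 (adjusted p = 0.086), without inhibitor-treated replicate 1 (adjusted p = 0.0883) and without inhibitor-treated replicate 2 (adjusted p = 0.0834).

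Among 26 FAK and Src family kinases and their partners, 5 rose and 8 fell, which is 19.2% and 30.8% of them against 17.6% and 18.5% of all genes, and the list median was -0.20, or 0.15 with ribosomal protein scaling. Without both libraries that stood apart the counts were 1 and 4, without inhibitor-treated replicate 1 they were 3 and 5, and with ribosomal protein scaling 5 and 3. Tgfb1i1, the paxillin relative Hic-5 of smooth muscle adhesions, was at 2395, 2295 and 2323 and then 6719.7, 6559 and 6182, an increase of 1.47 ± 0.08 (adjusted p = 5.58e-05). Paxillin itself (Pxn) went the other way, from 2006, 2154 and 2134 to 1514, 1508 and 1546 (-0.46 ± 0.08, adjusted p = 0.00404). Src rose by 0.49 ± 0.09 and Fyn, another kinase of its family, fell by 1.09 ± 0.09. Fgr, a family member of myeloid cells, was at 324, 405 and 212 and at 54.4, 76.6 and 120.3 (-1.92 ± 0.34). For this last gene the macrophage list, of which 24 of 27 members fell, moved in the same direction, and its part was not tested.

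Integrins, the matrix receptors upstream of FAK, were taken in the list of adherent cells and the list of leukocytes. Of 17 subunits of adherent cells 9 rose and 2 fell (median 0.81), and of 7 leukocyte subunits 4 fell and 0 rose (median -1.69). Without both libraries that stood apart 1 subunit of adherent cells fell. Itga8, the alpha8 subunit of contractile smooth muscle, was at 3537, 4484 and 6347 in injured and at 45253, 41557 and 50374 in inhibitor-treated libraries, with a sham level of 52324 ± 3999. Every inhibitor-treated library lay far above every injured one, a log2 fold change of 3.29 ± 0.21 (adjusted p = 8.39e-05). Npnt, nephronectin, the matrix ligand of that integrin, was at 1498, 1271 and 1511 and at 19681, 19746 and 21453 and rose by 3.83 ± 0.10 (adjusted p = 6e-06). Itga9, Itga7 and Itga3, subunits that pair with beta1, rose by 2.19 ± 0.13, 1.52 ± 0.08 and 1.49 ± 0.08. Itga11, a collagen receptor of fibroblasts, was one of the 2 that fell, from 603, 645 and 1189.8 to 161, 144 and 137 (-2.39 ± 0.26). The other was Itgb4, whose call was lost without injured replicate 2 (adjusted p = 0.0511), without inhibitor-treated replicate 1 (adjusted p = 0.0545), without inhibitor-treated replicate 2 (adjusted p = 0.0651) and without inhibitor-treated replicate 3 (adjusted p = 0.0513). Itgax, the CD11c subunit, went from 532, 1060.0 and 612 to 9.89, 45 and 62.5 (-4.47 ± 0.64).

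The proteins that tie integrins to actin were higher in most members. Of 32 actin linkers and LIM proteins 23 rose and 4 fell (median 0.94). Zyx, zyxin of mature adhesions and stress fibres, was at 3862, 3667 and 3737 and at 15874, 17477 and 14908, with no overlap and a rise of 2.10 ± 0.10 (adjusted p = 3.71e-05). Lims2, a LIM adaptor of the integrin-linked kinase complex, rose by 1.89 ± 0.08, Enah, an actin elongation factor, by 1.92 ± 0.10, and Actn1, an alpha-actinin crosslinker, by 1.71 ± 0.10. The 4 that fell were Fhl2 (-1.26 ± 0.14), Tln2 (talin 2, -0.97 ± 0.13), Tns3 (tensin 3, -0.70 ± 0.11) and Parvg, the parvin of blood cells (-1.83 ± 0.29).

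Contractile smooth muscle transcripts rose in most members. Of the 36 contractile genes 29 rose, 2 fell and 5 were not called, with a median log2 fold change of 1.52, and 0 fell without both libraries that stood apart. Together they made up 2.39% to 2.88% of the normalised counts of an injured library and 7.11% to 7.38% of an inhibitor-treated one. Acta2, smooth muscle alpha-actin (ENSMUSG00000035783, chromosome 19, 34241090 to 34255590), was at 66679, 74881 and 74409.5 in the injured libraries and at 267027, 262708 and 260201 in the inhibitor-treated ones. The 3 treated libraries were close to each other and to the sham level of 266142 ± 44942, and the log2 fold change was 1.87 ± 0.17 (adjusted p = 0.000271). Myh11, the smooth muscle myosin heavy chain, was at 45465, 52894 and 65103 and at 214435, 205987 and 216638 (1.98 ± 0.19, adjusted p = 0.000326), with sham at 206429.5 ± 26904.

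The thin-filament proteins moved with them. Cnn1, calponin, was at 6284, 7337 and 6864 and at 26959.8, 28393 and 28398, a rise of 2.03 ± 0.10 (adjusted p = 4.38e-05), and Tagln, SM22 alpha, was at 14808, 15169.7 and 14698 and at 42544, 43699 and 42088, a rise of 1.52 ± 0.10 (adjusted p = 9.88e-05). Neither gene overlapped between groups. Susd5, a membrane protein in the list, rose by 2.10 ± 0.11 and Kcnmb1, the beta1 subunit of the large-conductance potassium channel, by 2.30 ± 0.09. The 2 members that fell were Casq2, the calcium-binding calsequestrin of the sarcoplasmic reticulum, at 363, 271 and 182 and then 125, 93.8 and 90 (-1.35 ± 0.27), and Sncg, gamma-synuclein, at 1882, 1913 and 2081 and then 1556, 1624 and 1508 (-0.32 ± 0.09). The Sncg call was lost without injured replicate 2 (adjusted p = 0.0519), without inhibitor-treated replicate 1 (adjusted p = 0.0878), without inhibitor-treated replicate 2 (adjusted p = 0.0628) and without inhibitor-treated replicate 3 (adjusted p = 0.0773), and under ribosomal protein scaling its sign turned, to 0.02. Des (desmin), Tpm1, Synm and Ldb3 were among the 5 that were not called.

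**Figure D3:**
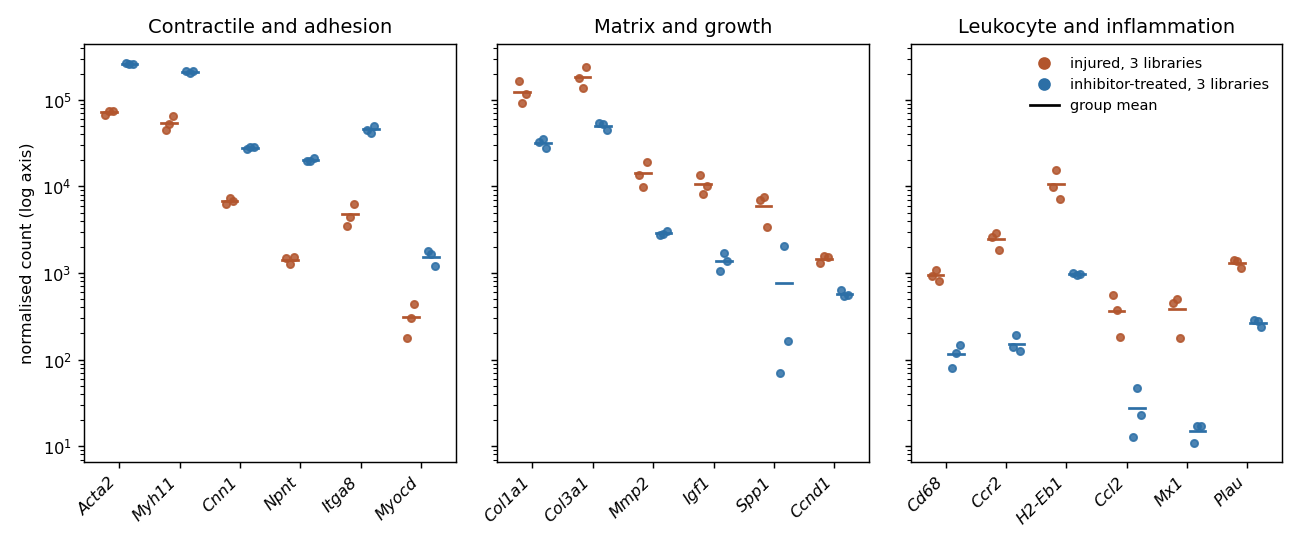
Normalised counts on a log axis of 18 genes in the 3 injured and 3 inhibitor-treated libraries, with a line at each group mean. Each of the 6 contractile and adhesion genes is higher in every inhibitor-treated library than in any injured one, and each of the 12 matrix, growth and inflammation genes is lower, with Spp1 uneven among the treated libraries.

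Transcription factors of smooth muscle rose in part, and falls were near the share of all genes. Of 25 factors 11 rose and 5 fell, 44% and 20% against 17.6% and 18.5% of all genes. The median was 0.09, or -0.01 with sample weights, and the counts were 9 and 2 without both libraries that stood apart. Myocd, myocardin, the coactivator that drives contractile genes, was at 178, 305 and 438 in the injured and at 1788, 1642 and 1189.8 in the inhibitor-treated libraries, with sham at 1207 ± 72.9. Its lowest treated library was well above its highest injured one (2.40 ± 0.32, adjusted p = 0.0013). Tead3, Hey2 (a Notch effector), Gata6 and Mef2d rose by 1.46 ± 0.09, 1.24 ± 0.10, 1.11 ± 0.09 and 0.95 ± 0.08. The 5 that fell were Prrx1, a mesenchymal homeobox factor, from 9363, 7633 and 9236 to 3956, 3529.5 and 3447 (-1.26 ± 0.11), Fhl2, and 3 whose calls were less stable. Klf4, a repressor of the contractile state, was at 4841, 3061 and 2437 and at 1694, 1925 and 1753 (-0.89 ± 0.23), and its call was lost without inhibitor-treated replicate 1 (adjusted p = 0.0767), without inhibitor-treated replicate 2 (adjusted p = 0.053) and without inhibitor-treated replicate 3 (adjusted p = 0.0749). The call of Hey1 (-0.76 ± 0.21) was lost without injured replicate 1 (adjusted p = 0.0633), without inhibitor-treated replicate 1 (adjusted p = 0.0569) and without inhibitor-treated replicate 3 (adjusted p = 0.0607), and Nr2f2 (-0.48 ± 0.13) kept its call in 1 of the 6 fits that left out a library.

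Many contractile genes are reached by serum response factor and myocardin through a DNA element called the CArG box. RefSeq promoters on GRCm38.p6 were matched for 12129 of the genes tested, and the 250 bases before the start were searched on both strands for the strict form of the box (its name stands for its letters). It was in 1.16% of all promoters and in 2 of the 31 contractile genes that had one, Myl9 and Ldb3, and only Myl9 was called. Its promoter is shown here because Myl9 is the called contractile gene that holds the element. It lies at chr2:156775263-156775352 on the + strand of GRCm38.p6, and the capitals mark the box.
Myl9: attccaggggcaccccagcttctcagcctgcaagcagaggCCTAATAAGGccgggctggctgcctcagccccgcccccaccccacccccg
The box begins 161 bases before the start of Myl9, the regulatory light chain of smooth muscle myosin, which was at 28053, 26348 and 23942 and at 91060.4, 91391 and 87122 and rose by 1.79 ± 0.13 (adjusted p = 0.000125). Over all matched genes, 29.8% of the 141 with the box were called higher and 18.1% of those without it. Within the contractile list 1 of the 2 genes with the box and 24 of the 29 without it were called higher. The window leaves out introns and more distant sequence, and a match is a description of letters, not a shown site.

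Ion channels and receptors that set arterial tone were higher in most members. Of 23 genes of potassium and calcium handling 16 rose and 2 fell (median 0.91), and of 26 vasoactive receptors and cGMP genes 16 rose and 5 fell (median 0.97). The rises were 69.6% and 61.5% of these lists against 17.6% of all genes. The falls were 8.7% and 19.2% against 18.5%, those of the vasoactive list being near the share of all genes. Atp2a2, the calcium pump of the sarcoplasmic reticulum, was at 4664, 5014 and 6019.8 and at 15555, 15414 and 16807 (1.61 ± 0.12), and Cacnb2, a calcium channel subunit, rose by 1.89 ± 0.16. Kcnn4, the intermediate-conductance potassium channel of dividing and inflammatory cells, and Casq2 were the 2 that fell, Kcnn4 with a log2 fold change of -1.20 ± 0.25. Ptgis, prostacyclin synthase, rose by 2.50 ± 0.10, from 2483, 2204 and 2305 to 12253, 13905 and 13376. Adra1d, the alpha-1D adrenergic receptor, was at 75.8, 63.9 and 73.5 and at 961, 792 and 707 (3.50 ± 0.16, adjusted p = 3.45e-05), and Npr1, the natriuretic peptide receptor that makes cGMP, rose by 1.82 ± 0.09. The 5 that fell were the endothelin receptors Ednra (-1.31 ± 0.20) and Ednrb (-1.39 ± 0.22), the angiotensin receptors Agtr2 (-5.20 ± 0.81) and Agtr1a (-0.92 ± 0.21), and the prostacyclin receptor Ptgir (-0.79 ± 0.16). Agtr2 was the most changed of these, at 138, 86.4 and 209 in injured and 0, 6.7 and 5.68 in inhibitor-treated libraries. Agtr1a lost its call without inhibitor-treated replicate 3 (adjusted p = 0.0605), while Agtr1b was among those that rose. Without both libraries that stood apart, 3 of the vasoactive list were lower and 0 of the channel list. With ribosomal protein scaling 2 of the vasoactive list were lower.

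More genes of the modulated smooth muscle state fell than rose. Of 26 such genes 14 fell and 4 rose (median -0.84), 53.8% and 15.4% against 18.5% and 17.6% of all genes. The rises were thus below the share of all genes. Spp1, osteopontin, was at 7008, 7492 and 3423 in the injured libraries and at 70.2, 2034 and 165 in the inhibitor-treated ones, against 99.7 ± 7.92 in sham. Inhibitor-treated replicate 2 held most of the Spp1 of its group, and the log2 fold change was -4.29 ± 1.11 (adjusted p = 0.0213), a call lost without injured replicate 1 (adjusted p = 0.0646), without injured replicate 2 (adjusted p = 0.0662), without inhibitor-treated replicate 1 (adjusted p = 0.0591) and without inhibitor-treated replicate 3 (adjusted p = 0.0827). Col8a1, a short-chain collagen made by migrating muscle cells, was steadier, at 9939.7, 7859.9 and 11073 and 2297, 2147 and 1731 (-2.22 ± 0.16). The 4 that rose are cytoskeletal or surface proteins that the sham wall also held: Myh10, non-muscle myosin IIB (2.65 ± 0.23), Cspg4, the NG2 proteoglycan of mural cells (1.55 ± 0.10), the intermediate filament Nes (0.86 ± 0.12) and the intermediate filament Vim (0.74 ± 0.14), whose call was lost without inhibitor-treated replicate 3 (adjusted p = 0.0979). Myh10, for example, was at 1595, 1734 and 2892 and at 14771, 11053 and 12105, with sham at 12973 ± 873.

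Targets of the YAP and TEAD factors, which respond to adhesion and tension, rose in part, and falls were near the share of all genes. Of 25 targets 10 rose and 5 fell (median 0.27), 40% and 20% against 17.6% and 18.5% of all genes. The counts were 4 and 4 without both libraries that stood apart. Cyr61 and Ctgf, secreted matricellular proteins and the best-known targets, rose by 1.01 ± 0.15 and 0.93 ± 0.14, Ctgf from 16133, 15615 and 16281 to 33845, 33107 and 25192. Igfbp3, an IGF-binding protein, fell from 2688, 1612 and 1936 to 333, 415 and 232 (-2.67 ± 0.25). The other 4 that fell were Ddah1 (-2.56 ± 0.31), which breaks down an inhibitor of nitric oxide synthase, Nuak2 (-2.02 ± 0.28), Ankrd1 (-1.14 ± 0.26) and Ajuba (-0.65 ± 0.13).

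Interstitial collagens fell in most members. Of 21 fibrillar and associated collagens 18 fell and 0 rose, with a median of -1.69, and Col6a1, Col6a2 and Col11a2 were not called. Col1a1, a chain of type I collagen (ENSMUSG00000001506, chromosome 11, 94936224 to 94953042), was at 163292, 90886 and 118376 in the injured libraries and at 32736, 35173 and 28180.2 in the inhibitor-treated ones, with sham at 29791 ± 3362. Col3a1, of type III collagen, was at 178441, 138522 and 238328 and at 53521, 52801 and 45411. Neither overlapped, and Col1a1 fell by 1.92 ± 0.23 (adjusted p = 0.000871) while Col3a1 fell by 1.84 ± 0.23 (adjusted p = 0.00096). Col5a3 and Col8a2, less abundant chains, fell (-2.52 ± 0.23 and -2.72 ± 0.25). Adventitial fibroblast markers, of which 14 of 20 fell, moved in the same direction as these genes, and their part was not tested.

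Among genes of the basement membrane that surrounds each muscle cell, 2 type IV collagen chains led the rises. Of 21 basement membrane genes 8 rose and 4 fell (median 0.18), 38.1% and 19% against 17.6% and 18.5% of all genes, and 2 fell without both libraries that stood apart. Col4a6 and Col4a5, the type IV chains that pair in smooth muscle, went from 306, 251 and 421 to 3924, 3849 and 4424 (3.67 ± 0.18) and from 1452, 1251 and 2210.1 to 6015, 5743 and 6194 (1.91 ± 0.20). Col18a1 and the laminin chain Lama5 rose by 1.48 ± 0.13 and 1.11 ± 0.11. The laminin chain Lamb1, the linkers Nid1 and Nid2 and the calcium-binding Sparc fell (-2.02 ± 0.18, -1.37 ± 0.14, -1.73 ± 0.29 and -0.97 ± 0.20), and Sparc lost its call without inhibitor-treated replicate 1 (adjusted p = 0.0569) and without inhibitor-treated replicate 3 (adjusted p = 0.125). The network-forming Col4a1 and Col4a2 chains were not called.

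Elastic fibre genes were also divided, though rises were near the share of all genes. Of 22 of them 10 fell and 4 rose (median -0.54), 45.5% and 18.2% against 18.5% and 17.6% of all genes. The counts were 8 and 1 without both libraries that stood apart. Ltbp2, a latent TGF-beta binding relative that binds elastic microfibrils, fell from 3703, 4243 and 5347 to 1298, 1317 and 1106 (-1.82 ± 0.15), and the fibulins Fbln2 and Efemp1 fell (-1.30 ± 0.11 and -1.43 ± 0.11). Ltbp1, which holds latent TGF-beta in the matrix, rose from 3814, 3946 and 4843 to 13578, 13733 and 13984 (1.72 ± 0.11), and Ltbp4, Ltbp3 and Emilin1 rose by 0.95 ± 0.18, 0.58 ± 0.13 and 0.61 ± 0.13, the Emilin1 call being lost without inhibitor-treated replicate 1 (adjusted p = 0.0502). Eln, elastin itself, was not called. Of the 4 latent TGF-beta binding proteins Ltbp2 thus fell while the others rose.

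Among 34 proteoglycans and matricellular proteins 14 fell and 7 rose (median -0.55), 41.2% and 20.6% against 18.5% and 17.6% of all genes. The rises were thus near the share of all genes. Lum, lumican, a small proteoglycan of collagen fibrils, was at 17566, 13444 and 21290.0 and at 3279, 3571 and 3085 (-2.37 ± 0.17). Cilp, a matrix protein known from cartilage, went from 3210.1, 2141 and 1673 to 143, 209.7 and 213 (-3.60 ± 0.26), Comp and Wisp1 fell (-1.67 ± 0.14 and -2.11 ± 0.19). Thbs4, thrombospondin 4, was at 2960.4, 927 and 1493 in injured libraries and only 11.9, 41.2 and 205 in treated ones (-5.06 ± 0.94). Smoc1, a secreted calcium-binding protein of basement membranes, and Nov rose by 2.15 ± 0.13 and 1.55 ± 0.14.

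Enzymes that make and fold collagen also fell in part. Of 26 genes of collagen processing and endoplasmic reticulum chaperones 11 fell and 1, P3h2, rose (median -0.21), the median turning to 0.14 with ribosomal protein scaling. The count that fell was 1 with ribosomal protein scaling, 7 without both libraries that stood apart, and 7 without inhibitor-treated replicate 1 or 2. P4ha3, a prolyl hydroxylase subunit, had the smallest p, at 663, 565 and 690.4 and 36.6, 57.5 and 46.4 (-3.76 ± 0.20), while Pcolce, Bmp1 and Pdia6 fell (-0.88 ± 0.12, -0.72 ± 0.11 and -0.75 ± 0.08). P3h2, the prolyl 3-hydroxylase known for its action on type IV collagen, rose by 2.21 ± 0.21.

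Cartilage and bone genes moved in both directions. Of 24 such genes 8 fell and 7 rose, 33.3% and 29.2% against 18.5% and 17.6% of all genes. The median was -0.20, or 0.14 with ribosomal protein scaling, and the counts were 6 and 4 without both libraries that stood apart. Col10a1, the type X collagen of hypertrophic cartilage, was at 948, 472 and 1718 in injured and 3.96, 6.7 and 24.6 in inhibitor-treated libraries, where sham held 4.79 ± 3.38. Col2a1, of hyaline cartilage, went from 357, 589 and 310.2 to 0.989, 14.4 and 2.84. They had the 2 largest falls that met the rule for naming, -6.53 ± 0.68 and -6.36 ± 0.71. Runx2, the master factor of bone, fell from 282, 257 and 273 to 57.4, 50.7 and 65.4 (-2.22 ± 0.16), and Acan, aggrecan, fell by 2.18 ± 0.26. Hapln1, which links aggrecan to hyaluronan, and Cytl1, a secreted cartilage factor, rose by 3.77 ± 0.45 and 0.93 ± 0.10.

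Among proteases that break down matrix more fell than rose. Of 20 metalloproteinases and TIMPs 7 fell and 4 rose (median -0.56), and of 24 cathepsin and plasminogen genes 13 fell and 5 rose (median -0.66). The falls were 35% and 54.2% of these lists against 18.5% of all genes. The rises were 20% and 20.8%, near the 17.6% of all genes. Without both libraries that stood apart the falls numbered 6 and 8 and the rises 2 and 3, and with ribosomal protein scaling 8 cathepsin and plasminogen genes fell. Mmp2, gelatinase A, was at 13678, 9836 and 19301 and at 2746, 2853 and 3026 (-2.26 ± 0.22), and its activator Mmp14 was at 15503, 8213 and 7132 and at 1767, 2058 and 1357 (-2.51 ± 0.30). Mmp12, macrophage elastase, went from 1492, 3507 and 1096 to 20.8, 126 and 56.8 (-5.04 ± 0.67), and Timp1, an inhibitor, fell by 2.63 ± 0.35. Mmp17, the membrane-anchored metalloproteinase that arterial muscle is known to express, rose by 1.54 ± 0.08, and Reck, a membrane-anchored inhibitor, by 0.93 ± 0.18. Plau, urokinase, fell from 1431, 1359.6 and 1156 to 285, 277 and 235 (-2.30 ± 0.13, adjusted p = 5.58e-05). The cysteine proteases Ctsk and Ctss fell (-2.04 ± 0.14 and -4.07 ± 0.32). Ctse, a cathepsin also found in red cells, rose to 447, 761 and 241 and Serpinb2 to 84.1, 143 and 69.2, with sham at 0.785 ± 0.681 and 2.27 ± 0.178. The erythroid list, of which 30 of 36 rose, moved with them, and its part was not tested.

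Cell cycle genes were lower in most members, although the proliferation marker Mki67 was not called. Of 21 G1 genes 12 fell and 4 rose (median -0.59), of 27 replication genes 18 and 1 (median -0.73), and of 30 mitotic genes 19 and 3 (median -1.24). The rises were 19%, 3.7% and 10% of these lists against 17.6% of all genes. Without both libraries that stood apart, 5, 4 and 10 fell, and leaving out 1 library at a time 8 to 12, 14 to 18 and 15 to 18 did. With ribosomal protein scaling 5 G1, 7 replication and 14 mitotic genes fell, and 0 replication genes rose without both libraries. Over all genes, lower calls numbered 3123 in the reported fit, 1608 without both libraries and 1473 with ribosomal protein scaling. Ccnd1, the cyclin D1 that opens G1, was at 1312, 1563 and 1537 in injured and at 630.1, 545 and 559 in inhibitor-treated libraries, against 777 ± 81.5 in sham. The treated libraries were all lower (-1.34 ± 0.11, adjusted p = 0.000187). E2f1, which switches on S phase genes, fell by 1.88 ± 0.22, and the kinase inhibitors Cdkn1c and Cdkn2c fell too (-1.20 ± 0.18 and -1.02 ± 0.16), while Rb1 rose by 1.26 ± 0.17.

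The replicative helicase subunits were a case of unequal change within 1 complex. Mcm2 was at 321, 344 and 274 and at 162, 142 and 141 and fell by 1.07 ± 0.14, Mcm5 fell by 1.32 ± 0.18, and Mcm6 rose by 0.63 ± 0.12, from 649.7, 717 and 776 to 1035, 1032 and 1245. Cdk1, the kinase that starts mitosis, was at 247, 252 and 186 and at 26.7, 46.9 and 30.3 (-2.72 ± 0.26, adjusted p = 0.000333), and its partner Ccnb1, cyclin B1, at 122, 128 and 101 and at 17.8, 20.1 and 8.53 (-2.91 ± 0.35). Mki67, the Ki-67 antigen of dividing cells, was at 634, 826 and 728 and at 543, 681 and 295, so the groups overlapped and no change was called (-0.60 ± 0.29, adjusted p = 0.148), and both lay above the sham level of 74.4 ± 8.92. The 3 mitotic genes that rose were Anln, an actin-binding protein of the cleavage furrow, at 1009, 928 and 808 with sham at 960.3 ± 167 (1.32 ± 0.13), Nusap1, a spindle protein, at 678, 1119 and 453 with sham at 42.1 ± 6.95 (2.13 ± 0.31), and the checkpoint kinase Bub1b, at 683, 713 and 195 with sham at 46.2 ± 19.3 (1.63 ± 0.48). Bub1b kept its call in 1 of the 6 fits that left out a library. Nusap1, Bub1b and the G1 gene E2f2 (404, 653 and 826, sham 22.3 ± 5.84) were higher in treated libraries than in sham. Against the injured libraries 30 erythroid markers were called higher too, and the part of red cell RNA in Nusap1, Bub1b and E2f2 was not tested.

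**Figure D4:**
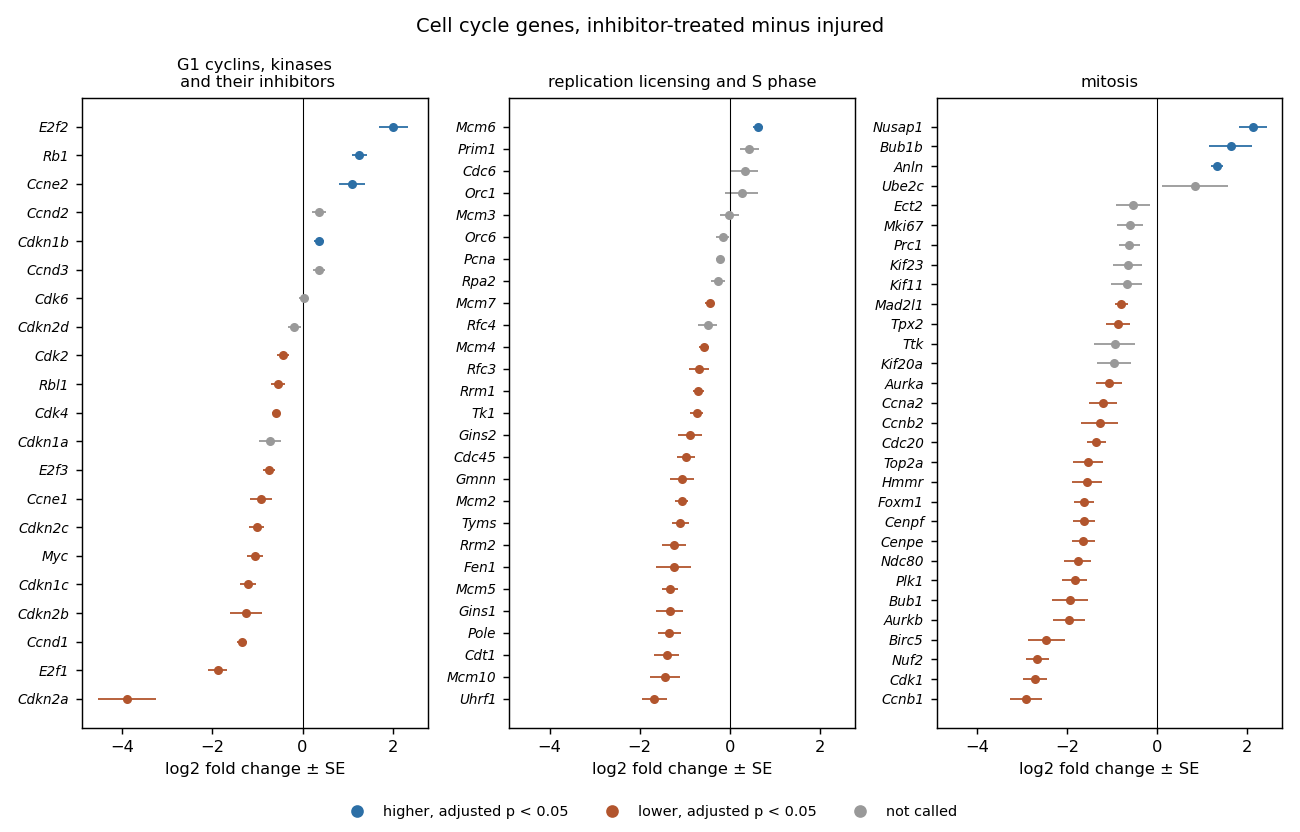
Log2 fold change with its standard error of each tested member of the 3 cell cycle lists, coloured by call. Most members lie left of 0, with Cdkn2a, Ccnb1 and Cdk1 lowest, while E2f2, Nusap1 and Bub1b lie farthest to the right among called genes and Mki67 is not called.

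Several growth factor ligands were lower. Of 33 PDGF, IGF, FGF and Notch genes 15 fell and 10 rose (median -0.40), or 9 and 5 without both libraries that stood apart, and 7 fell with ribosomal protein scaling. Igf1, insulin-like growth factor 1, was at 13624, 8175 and 10248 and at 1048, 1703 and 1383, with sham at 1348 ± 205 (-2.95 ± 0.23, adjusted p = 0.000152). Igfbp2, which binds it, fell from 3044, 3412 and 2301 to 411, 507 and 474 (-2.64 ± 0.16), and Igfbp4 and Igfbp6 were called lower too. Fgf7 and Fgf10, FGFs of mesenchymal cells, fell (-1.54 ± 0.13 and -2.70 ± 0.26), and Fgf1 rose by 1.27 ± 0.12. The Notch target Hey2 rose and Hey1 fell, as given above.

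In the Wnt pathway, 14 of 34 genes fell and 10 rose (median -0.41), and 8 fell without both libraries that stood apart, 9 without inhibitor-treated replicate 3 and 8 with ribosomal protein scaling. Sost, sclerostin, a secreted Wnt antagonist best known from osteocytes, was at 84.5, 24.6 and 22.4 in injured and at 13391, 13226 and 10781 in inhibitor-treated libraries. The sham level was 11063 ± 4037, and the log2 fold change of 8.38 ± 0.46 (adjusted p = 5.26e-05) was among the largest measured. Lgr6, a receptor of the R-spondins that strengthen Wnt signalling, went from 55.9, 26.5 and 46.6 to 5518, 4926 and 4854 (6.92 ± 0.25), with sham at 4989 ± 1076. The antagonists Sfrp4 and Dkk2 moved the other way, Sfrp4 from 12501, 11149.8 and 14414 to 2002, 2266 and 1965 (-2.60 ± 0.12) and Dkk2 with -3.12 ± 0.22, and Rspo1 and Rspo2, of the R-spondins themselves, were also called lower. In TGF-beta and BMP signalling 9 of 29 genes rose and 6 fell, 31% and 20.7% against 17.6% and 18.5% of all genes. The median was 0.04, but -0.09 with quantile normalisation, and 3 fell without both libraries. The receptors Bmpr1b, Bmpr1a and Tgfbr1 rose by 2.73 ± 0.19, 1.17 ± 0.14 and 0.74 ± 0.08, and the BMP antagonist Grem1 fell by 2.49 ± 0.42.

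Macrophage and monocyte markers fell in nearly every member. Of 27 markers 24 fell and 1, Mertk, rose, with a median of -3.14. Their summed level ran from 55697 to 85673 in injured and from 11886 to 18507 in inhibitor-treated libraries, and none was at 0 in any library. Cd68, a lysosomal protein of macrophages, was at 935, 1081 and 805 and at 80.1, 118 and 147, with sham at 85 ± 5 (-3.05 ± 0.23, adjusted p = 0.000139). Adgre1, the F4/80 antigen, was at 1152, 1615 and 1363 and at 95, 170.4 and 226, with sham at 107 ± 11.3 (-3.14 ± 0.31, adjusted p = 0.000352). Neither gene overlapped between the groups. Ccr2, the receptor by which monocytes are recruited, went from 2600.2, 2877 and 1862 to 141, 192 and 125 (-3.99 ± 0.21), and Ms4a7 and Csf1r fell (-5.03 ± 0.22 and -2.87 ± 0.15). Mertk, an engulfment receptor that also occurs outside macrophages, rose from 1591, 1517 and 1407 to 3059.6, 3374 and 2899 (1.05 ± 0.10). The inflammatory lists that follow moved in the same direction as this one, and the part of macrophage number in them was not tested.

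Chemokines and their receptors fell in 32 of 38 genes and rose in 4 (median -2.32), 21 and 2 without both libraries that stood apart. Ccl2, the ligand of Ccr2, was at 552, 369 and 183 in injured and at 12.9, 46.9 and 22.7 in inhibitor-treated libraries, where sham held 23.5 ± 6.18 (-3.74 ± 0.54, adjusted p = 0.0018). Injured libraries differed among themselves in Ccl2 but all lay above the treated ones. Cxcl12, made by stromal and muscle cells, fell from 12189.6, 10144 and 10147 to 3872, 3836 and 3803 (-1.49 ± 0.10), and Cxcl14 and Ccl11 fell (-3.29 ± 0.26 and -1.53 ± 0.11). The 4 that rose were the platelet chemokines Ppbp (7.24 ± 0.41) and Pf4 (1.40 ± 0.43), the eosinophil receptor Ccr3 (1.91 ± 0.41) and the neutrophil receptor Cxcr2 (1.64 ± 0.52). All 4 were lower in sham than in treated libraries, Pf4 and Cxcr2 each kept their call in 1 of the 6 fits that left out a library, and Ccr3 lost its call without inhibitor-treated replicate 1 (adjusted p = 0.0521).

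Of 31 interleukin-1, TNF and acute-phase genes 25 fell and 0 rose (median -1.57), 16 without both libraries that stood apart. Il33, a nuclear alarmin of stromal cells, was at 1968, 2249.6 and 2656 and at 412, 514 and 519 (-2.24 ± 0.15). The inflammasome genes Casp1, Casp4 and Gsdmd, which form the pathway to pyroptosis, fell (-1.70 ± 0.17, -1.14 ± 0.11 and -1.50 ± 0.11).

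Interferon-stimulated genes fell in 34 of 40 and rose in 2 (median -1.64), 22 and 1 without both libraries that stood apart. Interferons act on many of these genes through the interferon-stimulated response element, searched here as GAAA, any 2 bases and GAAA on both strands of the 250 bases before the start, where overlapping matches count as separate copies. It was in 16 of the 30 interferon genes with a RefSeq promoter and in 2.77% of all 12129, though these genes are known for the element. The promoters of the 3 called members with a match and the smallest p are shown, with the match in capitals, from GRCm38.p6 at chr7:104465194-104465269 (- strand), chr10:128270248-128270325 (+ strand) and chr5:120887614-120887671 (- strand), each read on the strand of its gene.
Trim30a: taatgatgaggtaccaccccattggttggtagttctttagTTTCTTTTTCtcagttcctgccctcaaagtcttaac
Stat2: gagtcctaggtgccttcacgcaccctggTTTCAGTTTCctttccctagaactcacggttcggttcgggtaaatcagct
Oas1g: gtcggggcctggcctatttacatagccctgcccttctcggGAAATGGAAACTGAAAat
The element begins 36 bases before the start of Trim30a, 222 before that of Stat2, and 18 and 12 before that of Oas1g, where 2 copies overlap. Trim30a, a restriction factor of the TRIM family, was at 1422, 1575 and 907 and at 273, 328 and 284 (-2.10 ± 0.21). Stat2, which carries the interferon signal to the nucleus, was at 1740.5, 2097 and 1318 and at 678, 745 and 619 (-1.31 ± 0.17), and Oas1g, an oligoadenylate synthetase, at 152, 265 and 75.3 and at 6.92, 15.3 and 6.63 (-3.87 ± 0.52). None of the 3 overlapped between groups. Of all matched genes, 33.9% of the 336 with the element were called lower and 18.4% of those without it, and of the interferon genes 12 of the 16 with it and 12 of the 14 without it were.

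Other members are given here without their promoters. Mx1, an antiviral GTPase, was at 456, 507 and 176 and at 10.9, 17.2 and 17.1 (-4.45 ± 0.43), the lowest injured library being replicate 3. Ifi204, a DNA sensor, and Irf8, a factor of the myeloid lineage, fell (-2.92 ± 0.23 and -2.77 ± 0.23). Isg20, an exonuclease, and Rsad2, viperin, rose, Isg20 from 291, 275 and 238 to 6714, 9639 and 3083 with sham at 113 ± 34.2 (4.45 ± 0.37), and Rsad2 from 1666, 1327 and 310.2 to 2099, 6262 and 3656 with sham at 94.8 ± 31.5 (2.04 ± 0.66). The Rsad2 call was lost without injured replicate 2 (adjusted p = 0.0638), without inhibitor-treated replicate 1 (adjusted p = 0.0539), without inhibitor-treated replicate 2 (adjusted p = 0.141) and without inhibitor-treated replicate 3 (adjusted p = 0.124). Both were at their highest in inhibitor-treated replicate 2, as was Alas2, and the part of blood cells was not tested.

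Antigen presentation and innate receptors were lower with no called exception. Of 16 MHC class II genes 12 fell, of 20 MHC class I and immunoproteasome genes 15 fell, 8 without both libraries that stood apart, and of 27 Fc and Toll-like receptor genes 24 fell, and in each list 0 rose. With ribosomal protein scaling 15 Fc and Toll-like receptor genes fell. The medians were -2.18, -1.10 and -1.76. H2-Eb1, a class II beta chain, was at 9828, 15463 and 7072 and at 992, 948 and 979 (-3.39 ± 0.25), and Cd74, the invariant chain, at 16577, 25280.2 and 11794 and at 2534, 1881 and 2614 (-2.88 ± 0.27). Psmb8, an immunoproteasome subunit, and Fcgr2b, an inhibitory Fc receptor, fell (-1.91 ± 0.27 and -3.01 ± 0.18). Complement fell in 18 of 23 genes (median -2.02). C4b, the classical pathway component that stromal cells also secrete, was at 9689, 9636 and 10038 and at 1594, 1925 and 1781 (-2.47 ± 0.10, adjusted p = 2.57e-05), and C1qb, a product of macrophages, fell from 5769, 5813 and 3621 to 331, 560.2 and 491 (-3.46 ± 0.25). Cd59a, which protects cells from complement, was the 1 that rose, by 0.35 ± 0.10, and its call was lost without both libraries that stood apart, without inhibitor-treated replicate 1 (adjusted p = 0.0957), without inhibitor-treated replicate 2 (adjusted p = 0.101) and without inhibitor-treated replicate 3 (adjusted p = 0.0503).

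Most called markers of other leukocytes were lower. Of 16 neutrophil markers 6 fell and 2 rose, of 26 lymphocyte markers 7 fell and 4 rose, and of 16 mast and dendritic cell markers 9 fell and 0 rose. The rises were 12.5% of the neutrophil and 15.4% of the lymphocyte list, below the 17.6% of all genes, and the falls 37.5% and 26.9% against 18.5%. The granule proteins Ngp and Ltf fell, Ngp from 94.4, 782 and 263 to 2.97, 10.5 and 5.68 (-5.33 ± 0.76) and Ltf from 63.4, 655 and 230.4 to 2.97, 3.83 and 0.947. The summed level of the neutrophil list overlapped, at 2514, 8865 and 2684 in injured and 3003, 3455 and 3331 in inhibitor-treated libraries. Its mean log2 level did not, at 6.61, 8.19 and 6.62 and at 5.49, 5.94 and 5.61. Of the 16 markers 8 were not called. Retnlg and Cxcr2 rose and each kept its call in 1 of 6 fits that left out a library, with sham levels of 2.99 ± 1.63 and 0.407 ± 0.705. Cd4, of helper T cells, fell from 186, 179 and 139 to 17.8, 44 and 44.5 (-2.31 ± 0.37), and the plasma cell gene Jchain from 2049, 2395 and 1008 to 29.7, 184 and 57.8 (-4.62 ± 0.64). Ms4a1, the B cell antigen CD20, rose from 8.7, 8.84 and 8.97 to 140.5, 51.7 and 439 (3.92 ± 0.69), with sham at 7.27 ± 5.85, and was highest in inhibitor-treated replicate 3. Flt3 and Cd209a, of dendritic cells, fell (-3.30 ± 0.27 and -3.32 ± 0.27). The lymphocyte counts rest on single libraries: only 1 marker rose without injured replicate 1, injured replicate 3, inhibitor-treated replicate 1 or inhibitor-treated replicate 3, and 4 fell without injured replicate 2. Without both libraries that stood apart, 2 lymphocyte markers rose and 5 mast and dendritic cell markers fell.

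Markers of the layers that dissection should have removed were present in all 6 libraries, and most endothelial and adventitial ones were called lower with the inhibitor. Of 25 endothelial markers 18 fell and 0 rose (median -0.85), with a summed level of 68187 to 84229 in injured and 50946 to 52024 in inhibitor-treated libraries. Kdr, the VEGF receptor 2, was at 1799, 1742 and 2222 and at 737, 707 and 742 (-1.39 ± 0.11), and Pecam1 and Vwf were not called. Of 20 adventitial fibroblast markers 14 fell and 1 rose (median -0.73), with a summed level of 183656 to 234700.2 and of 111899.6 to 120309. With ribosomal protein scaling the falls numbered 9 of the endothelial and 5 of the adventitial markers. Dcn, decorin, fell from 74779.8, 51369 and 59095 to 20572, 20909.9 and 19463 (-1.59 ± 0.16), and Cd34 was lower too (-0.96 ± 0.09). Pi16 rose by 0.40 ± 0.11, a call lost without both libraries that stood apart, without injured replicate 1 (adjusted p = 0.066), without injured replicate 2 (adjusted p = 0.0745), without inhibitor-treated replicate 1 (adjusted p = 0.0885) and without inhibitor-treated replicate 3 (adjusted p = 0.0989). Of 16 Schwann and neuronal markers 6 fell and 1, Uchl1, rose (median -0.73), 3 and 1 without both libraries that stood apart, and 3 fell without inhibitor-treated replicate 3 and 1 with ribosomal protein scaling.

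Fat cell markers fell in most members. Of 17 adipocyte markers 10 fell and 3 rose (median -0.89), and 5 fell with ribosomal protein scaling. The rises were 17.6% of the list, as of all genes, and the falls 58.8% against 18.5%. Adipoq, adiponectin, fell from 4261, 3251 and 5742 to 1378, 1739.9 and 1358 (-1.54 ± 0.21), and Cfd, adipsin, fell too (-1.90 ± 0.24). Ucp1, the uncoupling protein of brown fat, was at 19.9, 25.5 and 35 in injured and at 1035, 1431 and 1945 in inhibitor-treated libraries (5.71 ± 0.28, adjusted p = 4.38e-05), and Cidea, of brown fat lipid droplets, at 83.2, 40.3 and 102 and at 1143, 1206 and 1414 (4.14 ± 0.32). The sham libraries held 2473 ± 2663 of Ucp1, a mean with a wide spread, and the third marker that rose was Plin4, a coat protein of lipid droplets.

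Skeletal muscle markers were called lower in 4 of 30 (median -3.30), 13.3% against 18.5% of all genes, and that count rests on single libraries. It was 21 without injured replicate 3, 17 without inhibitor-treated replicate 2, 2 without injured replicate 2, 1 without inhibitor-treated replicate 1 or 3, and 0, with 1 higher, without injured replicate 2 and inhibitor-treated replicate 3 together. Of the 32 hepatocyte markers 0 rose and 2 fell, 6.25% where 18.5% of all genes fell. The list median was 2.46 and the high values lay in inhibitor-treated replicate 3, without which 4 fell, with or without injured replicate 2. The 2 that fell, Hp and Cyp2e1, are expressed in fat as well as liver, and were at 10981, 5361 and 10926 and at 1327, 2007 and 1288 for Hp (-2.52 ± 0.31).

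Heat shock genes rose in part, and none was called lower. Of 24 such genes 14 rose and 0 fell (median 0.54). Hspb7, a small chaperone of muscle, was at 2567, 2777 and 2283 and at 10799, 13998 and 12281 (2.28 ± 0.13), and Hspa1a, an inducible Hsp70, at 501, 397 and 443 and at 3879, 3060.3 and 1814 (2.64 ± 0.26). Immediate early genes rose in 7 of 25 and fell in 4, 28% and 16% against 17.6% and 18.5% of all genes. Dusp1, a phosphatase of stress kinases, rose by 0.99 ± 0.09, while Dusp6, the phosphatase of ERK and a usual readout of its signalling, fell from 1652, 1339 and 1335 to 388, 527 and 514 (-1.60 ± 0.15, adjusted p = 0.000328) and Egr2 fell by 2.07 ± 0.16. The falls numbered 2 without both libraries that stood apart.

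Genes of lipid uptake and cholesterol handling were lower in most members. Among 27 such genes 18 fell and 4 rose (median -0.89), 66.7% and 14.8% against 18.5% and 17.6% of all genes. Apoe, apolipoprotein E, was at 46590.5, 36527 and 39108 and at 8131, 9985 and 10122 (-2.11 ± 0.14), and the cholesterol exporter Abcg1 fell by 2.47 ± 0.20. Srebf2, the factor that switches on sterol synthesis, rose from 1024, 983 and 886 to 2284, 2246 and 2182 (1.22 ± 0.09), and Sqle, squalene epoxidase, rose by 0.84 ± 0.11. Nr1h2, a sterol-sensing nuclear receptor, was also among those that rose. Glycolysis gave 6 of 22 higher and 3 lower, 27.3% and 13.6% against 17.6% and 18.5% of all genes. The lower count was 1 without both libraries that stood apart. Pfkp, a phosphofructokinase, rose by 1.29 ± 0.11, and Hk3, the hexokinase of myeloid cells, fell by 2.95 ± 0.34. The glycolysis median of -0.03 turned to 0.32 with ribosomal protein scaling and to 0.28 without injured replicate 2.

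Chromatin and clock genes are set beside the shares of all genes, 17.6% higher and 18.5% lower. Of 28 DNA methylation and NuRD genes 5 rose and 2 fell (17.9% and 7.14%), 1 and 1 without both libraries that stood apart and 8 and 2 without injured replicate 3, and 9 rose with ribosomal protein scaling. Chd3, a NuRD remodeller, rose by 0.68 ± 0.10, and Uhrf1, which recruits the maintenance methyltransferase in S phase, fell by 1.67 ± 0.28. Hdac2, a histone deacetylase of the complex, fell by 0.30 ± 0.09 (adjusted p = 0.0352), a call kept in 1 of the 6 fits that left out a library and a sign that turned (0.05) with ribosomal protein scaling. The methyltransferases Dnmt1, Dnmt3a and Dnmt3b were not called. Of 19 clock genes 6 rose and 1 fell (31.6% and 5.26%), 1 and 0 without both libraries. Nr1d1, the REV-ERB alpha repressor, was at 3014, 2183 and 1834 and at 6045, 7121 and 5411 (1.42 ± 0.19). The hour of collection is not given in the sources used here.

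Further lists cover classes of RNA rather than pathways of the wall. Of 21 replication-dependent histone genes, whose transcripts lack a poly(A) tail, 12 were called higher and 0 lower, while the replication genes given above were mostly lower. The histone rises stood beside those of the small RNA and erythroid lists, and the part of either was not tested. Of 13 mitochondrially encoded genes 8 were called higher (median 0.65), but 0 without both libraries that stood apart, 0 without inhibitor-treated replicate 1 or 2, and 1 without inhibitor-treated replicate 3. Of 94 nuclear respiratory chain genes 4 rose and 3 fell (median 0.10), where 17.6% and 18.5% of all genes did. These counts rest on single libraries and on the scaling: 22 fell without injured replicate 3, where the median was -0.09, 10 rose without injured replicate 2, and 0, 1 and 2 rose without inhibitor-treated replicates 1, 2 and 3. With ribosomal protein scaling 22 rose and 1 fell, and without both libraries 6 and 0. Cytosolic ribosomal protein genes fell in 13 of 85 (median -0.34), 15.3% against 18.5% of all genes. The count was 73 without injured replicate 3 and 1 to 5 without any other single library. It was 0 without both libraries that stood apart or when these genes set the scale. Among nuclear-retained long RNAs 5 of 14 fell and 1 rose (median -0.38), 7 and 4 without injured replicate 3, 4 and 0 without inhibitor-treated replicate 1 or 3, and 4 and 0 without both libraries. Meg3 and Rian, of the imprinted Dlk1-Dio3 region, fell (-1.67 ± 0.24 and -1.57 ± 0.21), Meg3 from 19004, 10005 and 11446 to 3687, 4684 and 3928, and Malat1, Neat1 and Tug1 were not called.

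The largest rises among genes outside the blood, liver, muscle, small RNA and histone lists were of 2 kinds when set beside sham. Dsp, desmoplakin, which anchors intermediate filaments at desmosomes (ENSMUSG00000054889, chromosome 13, 38151294 to 38198577), was at 11.2, 1.96 and 5.38 in injured and at 3595, 3123 and 3618 in inhibitor-treated libraries, and sham held 3808 ± 239. It had the largest rise under the rule, 9.13 ± 0.46 (adjusted p = 4.38e-05). Tceal6, of a family related to elongation factors, Gal3st3, a sulfotransferase, Olfr224, an olfactory receptor, and 2210407C18Rik rose likewise from a low injured level. Tceal6 reached a level near sham, while Gal3st3, Olfr224 and 2210407C18Rik stayed below the sham mean in every treated library. Tceal6 was at 2.48, 0.982 and 0 and at 322, 263 and 215, with sham at 285 ± 50.4 (7.12 ± 0.50). Gal3st3 was at 2.48 to 4.48 in injured and 251 to 296 in treated libraries, with sham at 369.7 ± 45, and Olfr224 was at 1.96 to 2.69 and at 224 to 255, with sham at 378 ± 35.8. For 2210407C18Rik the ranges were 1.96 to 2.69 and 299 to 469, with sham at 691 ± 139. Sost and Lgr6, given above, complete the group that sham also held. In contrast Apol11b was at 11.2, 4.91 and 4.48 and at 1227, 3211 and 1235, with sham at 10.2 ± 11.5, Pls1, a plastin that bundles actin, rose to 253, 428 and 227 with sham at 3.08 ± 1.82, and Gm10371 rose to 234, 242 and 153 with sham at 6.65 ± 2.59. Among the 9 libraries these last 3 were thus high in the inhibitor-treated ones alone, where the red cell and small RNA lists were high too, and the part of those was not tested.

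The 10 largest falls under the rule included cartilage collagens, macrophage genes and antibody genes. Besides Col10a1, Col2a1, Thbs4, Mmp12, Ms4a7, Jchain and Itgax, given above, they were Igha, the IgA heavy chain, H19, an imprinted long RNA, and Ccl8, a monocyte chemokine. Igha was at 6352, 8379 and 3645 and at 23.7, 613 and 116 (-5.58 ± 1.03), and inhibitor-treated replicate 2 held most of it in its group. H19 was at 5790.4, 15933 and 4502 and at 75.2, 631 and 302 (-4.93 ± 0.78), highest in injured replicate 2, the library high in skeletal muscle transcripts. Ccl8 was at 1413, 1324 and 609 and at 16.8, 112 and 42.6 (-4.56 ± 0.65). For Col10a1, Col2a1, Ms4a7 and Ccl8 the treated and sham levels were of similar size, while for Igha and Mmp12 the treated libraries lay on both sides of or above the sham mean.

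**Figure D5:**
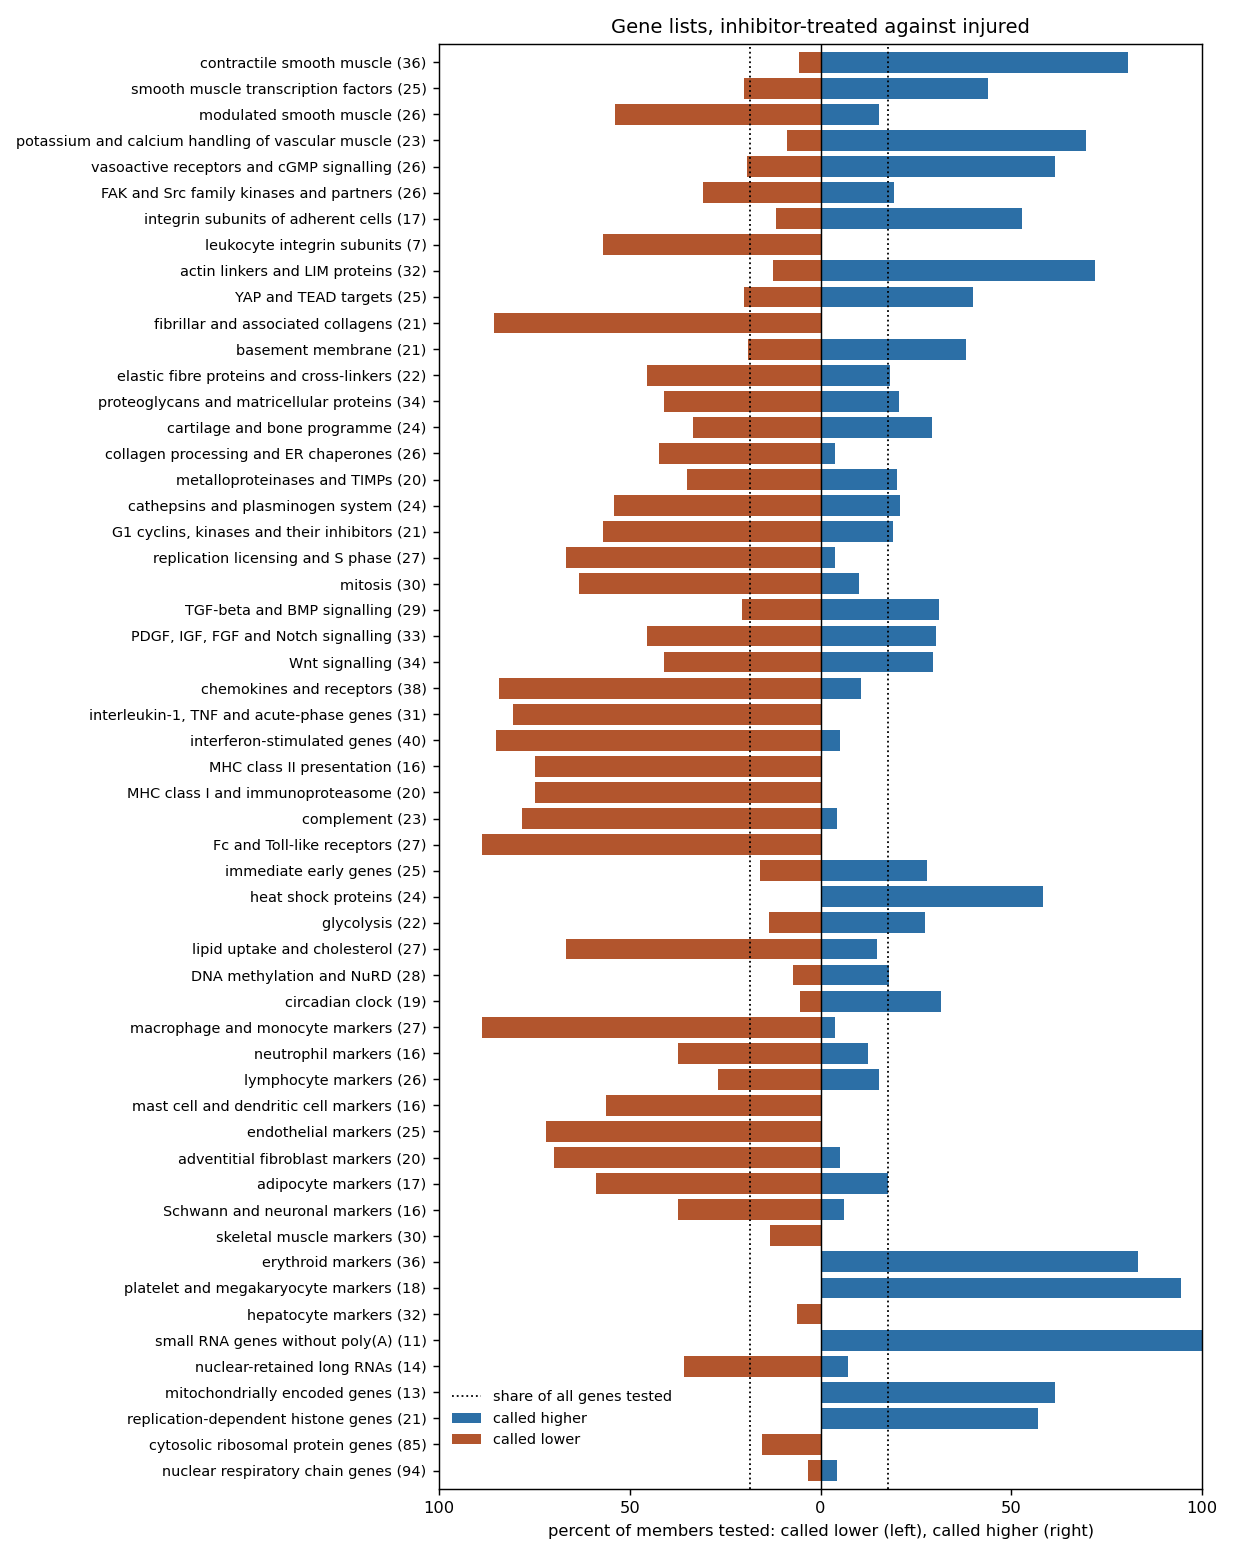
Percent of the tested members of each gene list called higher (right) or lower (left) with the inhibitor, the number tested in brackets, and dotted lines at the shares of all genes tested, 17.6% higher and 18.5% lower. Contractile, adhesion and blood lists reach far to the right and collagen, macrophage and inflammatory lists far to the left, while the respiratory chain list stays inside the dotted lines on both sides.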

How the data were processed

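RNA-seq of 9 libraries was deposited by the authors as tables of normalised counts, a signal that is reads divided by one factor per library, so that every value gave a whole read within 0.01. Per the submitters' processing notes the build was mm10 (GRCm38), and the aligner is not given in the sources used here, nor are the counter and strand setting. The lowest gene mean in the table was 9.63, so rarer genes are not analysed here. Gene names were matched by ID for 16896 genes, and 21 symbols stored as calendar dates were replaced. Gene positions are from the GENCODE annotation of the same build, and promoters from RefSeq.

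The comparison was computed with limma 3.58.1 in R 4.3.3, with a trend, on log2(value + 1), for genes with a mean of at least 10, by group alone. The authors' own fold changes and p-values were not used. Sham counts came from another table and were rescaled. edgeR 4.0.16 and DESeq2 1.42.0 on the recovered counts, and other scalings, filters and subsets, were alternatives. The fit was tested on simulated data.

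Members and gene lists were chosen with earlier results of these data known, and a gene can stand in several lists. Named were 21 fixed genes, the 10 largest rises and falls (mean of at least 100, no overlap, called in all 6 fits without 1 library, and, in the group where the gene is higher, highest library at most 4 times the lowest; for rises, blood, liver, skeletal muscle, small RNA and histone genes set aside), in each list up to 4 called members of smallest p in its main direction and 2 in the other, all in the other direction where 5 or fewer, and genes whose promoter is printed. Members named for not being called, and others with a stated call beyond these, were chosen after their values were seen. Some named genes are not reported here.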

Additional observations from a re-analysis of the deposited data

How the results depend on the processing

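Numbers of genes called moved with the setting, while no gene called in the reported fit was called in the opposite direction under any setting run. Leaving out 1 library gave 4099 to 7938 calls, 1936 to 3945 higher and 2163 to 3993 lower, the fewest higher without inhibitor-treated replicates 1 (1936) and 2 (1983), the most without injured replicate 3. Without injured replicate 2 and inhibitor-treated replicate 3 together there were 3069 calls (1461 higher, 1608 lower), from 4 libraries. Sample weights gave 10651 (5276 and 5375), an adjusted p of 0.01 gave 3497 (1698 and 1799), and a log2 fold change of at least 1 gave 3250 (1314 and 1936). edgeR on recovered reads called 5962 genes and DESeq2 6771. Ribosomal protein scaling left 1473 lower, and under it Sncg (0.0235), Hdac2 (0.0473) and the medians of the FAK (0.15), cartilage (0.14), collagen processing (0.14) and ribosomal protein (0.0047) lists turned positive. The thresholds are stricter. Subsets hold fewer libraries, yet calls numbered 7938 without injured replicate 3, and the cause of shifts outside the thresholds was not tested. Correlations of deviations from the group mean were 0.004, 0.192 and 0.016 between libraries of the same replicate number. Between different numbers they ran from -0.213 to 0.175. With 3 libraries per group these values cannot decide whether the numbers pair libraries, and the replicate block gave 5747 calls. Of the comparisons of 341 named genes with an alternative, 6449 kept direction and side of the threshold, 324 fell below it, 8 rose past it and 2 turned. Genes at a few counts, such as Col2a1 or Tceal6 in their lower group, have fold changes that depend on the pseudocount.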

Other observations

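Transcript classes differed in how many members were called. Of 14454 protein-coding genes 18.2% were called higher and 19.9% lower. Of 283 processed pseudogenes 21.2% were higher and 4.24% lower, and of 35 genes annotated as miRNA, whose counts here come from longer transcripts or their hosts and not from mature miRNA, 31.4% were higher and 5.71% lower. Immunoglobulin variable genes went the other way, with 0 of 26 called higher and 34.6% lower (median log2 fold change -1.86), while the B cell gene Ms4a1 was called higher. Antisense genes were called in fewer cases than protein-coding ones, 12.6% higher and 6.31% lower of 523. The differences between classes were not tested.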
